A study of Mus musculus with 6 samples.

Results

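The regions described here are the promoter regions at which both GATA4 and GATA6 were mapped in mouse extra-embryonic endoderm (XEN) cells. A region was taken from the combined GATA4 list when it overlapped a region of the combined GATA6 list by at least 1 bp and its midpoint was no more than 1 kb from a transcription start site (TSS) of the annotation. The members were thus chosen by measured signal, since a combined list holds only what was called in all 3 libraries of a factor, and their presence in both lists is a description and not a result. There were 2051 such regions, 24.8% of the 8282 regions in the combined GATA4 list and 54.8% of the 3744 regions shared by both lists, out of 201994 regions after the lists of all 6 libraries were merged. For comparison, 1972 promoter regions were in the combined GATA4 list only, and 1693 shared regions lay further than 1 kb from a TSS and are called distal.

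GATA4 and GATA6 are zinc finger transcription factors of the primitive endoderm, the embryonic lineage from which XEN stem cells are derived, and both recognise the same short sequence, AGATAA or AGATAG or TGATAA or TGATAG. They are known to act largely from enhancers, where they can engage closed chromatin, whereas many promoters are CpG islands that are held open by ubiquitous factors such as SP proteins, NF-Y, ETS factors and NRF1. NRF1 is an activator of genes for mitochondrial function and growth that binds GCATGCGC at CpG-rich promoters.

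CUT&RUN, in which an antibody tethers a nuclease that releases the DNA around a bound protein for sequencing, was carried out on 500000 cells per sample. There were 3 libraries for GATA4 and 3 for GATA6. Per the labels all 6 libraries came from the XEN line with genotype 3F2, a single untreated line. The 3F lines carry the alleles Col1a1 TetO-OKSmCh (inducible reprogramming factors), R26 M2rtTA (the inducer) and Oct4-GFP (a reporter), so by the labels both groups shared these alleles and differed in the antibody target. The study's methods name the line 3F6 beside 3F2 and describe fewer replicates, so which line gave which library is not certain. The number of reads that passed filtering is unknown for each library, and the signal of a region was therefore ranked only within the list of its own library.

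Several members show the sequences under discussion. The first set was taken at named lineage and AP-1 genes and at members of the highest signal that held a GATA motif within 50 bp of the mean position of maximum signal. Each is given in mm10, 5′ to 3′ on the strand of the gene, with the GATA motif nearest to the maximum in capitals (its complement where the motif lies on the other strand).
Pdgfra, chr5:75151494-75151579, plus strand: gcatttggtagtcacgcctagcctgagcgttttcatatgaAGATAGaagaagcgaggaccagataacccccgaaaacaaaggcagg
Serpinh1, chr7:99354019-99354104, minus strand: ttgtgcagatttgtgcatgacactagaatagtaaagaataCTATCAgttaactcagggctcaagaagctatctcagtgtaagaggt
Jund, chr8:70698516-70698601, plus strand: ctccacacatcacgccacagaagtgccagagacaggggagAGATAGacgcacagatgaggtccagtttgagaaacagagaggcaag
Evi5l, chr8:4166158-4166243, plus strand: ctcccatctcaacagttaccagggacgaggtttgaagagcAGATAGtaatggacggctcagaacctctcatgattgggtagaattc
Zbtb3, chr19:8802439-8802524, plus strand: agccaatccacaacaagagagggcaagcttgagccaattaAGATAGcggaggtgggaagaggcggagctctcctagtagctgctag
Relative to the nearest TSS, the Pdgfra motif was at -755 bp, the Serpinh1 motif at -823 bp and the Jund motif at -390 bp, all in sequence annotated as upstream of the gene or intergenic. The Zbtb3 motif lay closest to its TSS, at -73 bp. The Evi5l motif was at -366 bp and in an intron of a longer transcript.

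The second set shows the NRF1 motif, in capitals, at 4 of the members of highest signal that held it within 50 bp of the maximum. These were chosen after the motif result was known.
Snrnp70, chr7:45395756-45395843, minus strand: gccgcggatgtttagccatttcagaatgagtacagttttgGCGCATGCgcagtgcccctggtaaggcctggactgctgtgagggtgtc
Ftx, chrX:103622422-103622509, minus strand: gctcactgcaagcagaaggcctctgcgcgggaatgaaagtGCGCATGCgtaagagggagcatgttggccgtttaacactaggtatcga
Wdfy2, chr14:62837496-62837583, plus strand: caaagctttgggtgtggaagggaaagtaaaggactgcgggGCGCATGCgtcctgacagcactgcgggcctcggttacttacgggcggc
Upf1, chr8:70353476-70353563, minus strand: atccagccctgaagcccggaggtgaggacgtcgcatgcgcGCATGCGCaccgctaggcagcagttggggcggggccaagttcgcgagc
Snrnp70 encodes a protein of the U1 splicing particle, Upf1 the helicase of nonsense-mediated decay, and Ftx is a noncoding RNA gene of the X-inactivation centre. Relative to the TSS, the motif lay at -58 bp for Snrnp70, -97 bp for Ftx, -138 bp for Wdfy2 and -242 bp for Upf1.

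The members lay just upstream of start sites. Midpoints had a median position of -61 bp relative to the TSS (quartiles -161 and 14), 1423 (69.4%) were upstream, 1499 (73.1%) were within 200 bp, and 1915 members covered the TSS itself. The median width was 772 bp (quartiles 571 and 1048). The annotation placed 894 midpoints (43.6%) upstream of genes or between them, 471 in UTRs, 417 in introns, 189 in noncoding exons and 80 in coding exons. At the limit of the 1 kb window, the members just inside were at Mapk1ip1l (-995 bp), Ccdc63 (979 bp) and AC166350.2 (-979 bp), and the regions just outside were at Gm14005 (1007 bp), Nmnat2 (-1008 bp) and Ypel2 (-1020 bp). The overlap with the GATA6 region had a median of 595 bp and covered at least 50% of the shorter region in 2030 members, and in 4 it was under 50 bp.

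The nearest TSS belonged to a protein-coding gene at 1860 members and to a lncRNA gene at 191. The makeup of these groups is given as a description. TSSs on both strands within 1 kb of the midpoint, called divergent here, were found at 21.9% of the protein-coding members and 58.6% of the lncRNA members. CpG-rich sequence (GC of at least 55% and an observed to expected CpG ratio of at least 0.65 in 500 bp) was present at 56.5% and 39.3%, and the GATA motif within 100 bp of the midpoint at 16.4% and 35.1%. In all, 548 members had TSSs of 2 or more genes within 1 kb.

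Within each library the members sat near the top of the list. Total signal is the fragment pileup summed over a region, and the percentile is the place of the region in the list of its library, with 100 the highest. The median percentile of the members was 93.4, 92.7 and 93.1 in GATA4 replicates 1, 2 and 3, and 93.0, 92.3 and 92.9 in GATA6 replicates 1, 2 and 3. These medians describe the choice of members, because regions called in all 6 libraries tend to be strong ones. Between 57.1% and 63.6% of members were in the top 10% of a list, and between 5.02% and 9.38% were in its lower 50%. GATA4-list-only promoter regions had medians of 83.0 to 84.5 in the GATA4 libraries and 79.7 to 81.2 in the GATA6 libraries. The GATA6 medians cover only the regions of this class that held a called region in the library. These were 1016, 914 and 1003 of the 1972 in GATA6 replicates 1, 2 and 3. The maximum signal, which is the tallest stack of fragments in a region, had a median of 9, 9 and 10 at the members in the GATA4 libraries and 8, 7 and 8 in the GATA6 libraries, against 4 over all regions of each library. A typical member therefore rested on fewer than 11 stacked fragments, and its rank is an imprecise value.

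**Figure D1:**
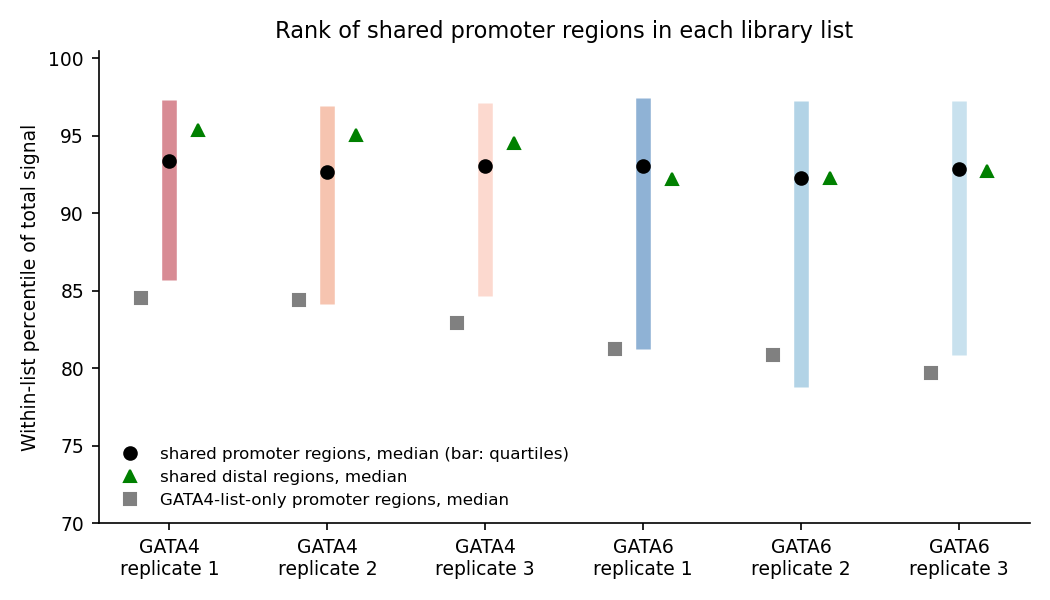
Within-list percentile of total signal (vertical axis, 100 is the highest) in each of the 6 libraries. Black points and coloured bars are the median and quartiles of the shared promoter regions, triangles the medians of shared distal regions and squares the medians of GATA4-list-only promoter regions. Each median covers the regions called in that library, which in the GATA6 libraries leaves out many GATA4-list-only promoter regions. Member medians lay between 92.3 and 93.4 in all 6 libraries.

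The maxima of the 2 factors lay close together in these regions. The median distance between the positions of maximum signal in a GATA4 and a GATA6 library was 35 to 38 bp over the 9 cross-factor pairs. It was 33 to 37 bp over the 3 pairs of GATA4 libraries and 38 to 39 bp over the 3 pairs of GATA6 libraries. The cross-factor distances were thus no longer than those between GATA6 libraries. Members were chosen for overlap of the 2 lists, which limits these distances and makes them a description. In shared distal regions they were 43 to 50 bp across factors, 34 to 39 bp between GATA4 libraries and 45 to 49 bp between GATA6 libraries. Ranks of the members were less alike: Spearman's rho of total signal was 0.557 to 0.618 between GATA4 libraries, 0.373 to 0.419 between GATA6 libraries and 0.373 to 0.427 between a GATA4 and a GATA6 library. These coefficients are across regions of the same cell line, which share their width and sequence between libraries, and are given as a description.

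Both strands within 100 bp of each midpoint were next searched for the GATA motif. It was present at 372 members (18.1%, exact 95% binomial interval 16.5 to 19.9). The same window around all annotated protein-coding TSSs held it in 15.7% of 41492 cases. GATA4-list-only promoter regions held it in 19.4%, a difference of -1.28 percentage points (95% interval -3.70 to 1.13) that did not pass the threshold of 0.05 (two-sided p = 0.313 by Fisher's exact test, adjusted over 3 features 0.657). Shared distal regions held it in 58.5% (interval 56.1 to 60.9). Binomial intervals and Fisher's tests here have regions as units and cover counting error only, not the spread between libraries.

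The members were then divided by base composition. The motif was present at 27.8% of the 925 members that were not CpG-rich (interval 24.9 to 30.8) and at 10.2% of the 1126 that were (interval 8.51 to 12.1). Among all protein-coding TSSs the corresponding shares were 23.7% and 5.25%. CpG-rich sequence made up 54.9% of the members and 55.6% of the GATA4-list-only promoter regions (difference -0.73 points, interval -3.80 to 2.34; Fisher's exact p = 0.657, adjusted 0.657). Divergent TSSs were found at 25.4% and 24.3% (difference 1.01 points, interval -1.66 to 3.68; Fisher's exact p = 0.466, adjusted 0.657). These comparisons changed with the lists used. For settings with fewer libraries, the lists were rebuilt from the libraries by merging overlapping regions. The limits of regions may thus have changed along with the number of libraries, and their parts were not separated. With at least 2 of 3 libraries per factor, the differences were -4.89 points for the GATA motif, 12.8 points for CpG-rich sequence and 3.71 points for divergent TSSs (Fisher's exact p = 5.62e-07, 3.03e-25 and 0.00029). The CpG-rich difference also changed sign when any 1 library was left out (1.26 to 3.44 points), and it passed 0.05 without GATA4 replicate 1, 2 or 3 (Fisher's exact p = 0.016, 0.0469 and 0.0483). The GATA motif difference passed it without GATA4 replicate 1 or 3 (-2.40 and -2.31 points, Fisher's exact p = 0.0347 and 0.0362).

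The position of the motif set promoter and distal regions apart. Within 50 bp of the maximum of the library itself, the members held a GATA motif in 9.43% to 11.3% of cases, and windows 300 bp to either side held it in 8.70% to 9.63%. The difference was 0.0982 to 1.63 points over the 6 libraries. In the shared distal regions 46.5% to 51.0% held it within 50 bp of the maximum and 17.0% to 18.3% in the windows to the side, a difference of 29.2 to 33.4 points. Against windows 300 bp away, all 6 libraries thus showed a peak of the motif at distal maxima and close to none at promoter maxima. In 41 bp windows around GATA4 maxima the members held it in 5.02%, 3.80% and 4.49% at -40, 0 and 40 bp. At -160 and 160 bp they held it in 2.93% and 3.80%. Around GATA6 maxima the shares were 4.14%, 3.90% and 4.29%, and 3.17% and 3.56%. The part of base composition, which differs with distance from start sites, was not tested.

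**Figure D2:**
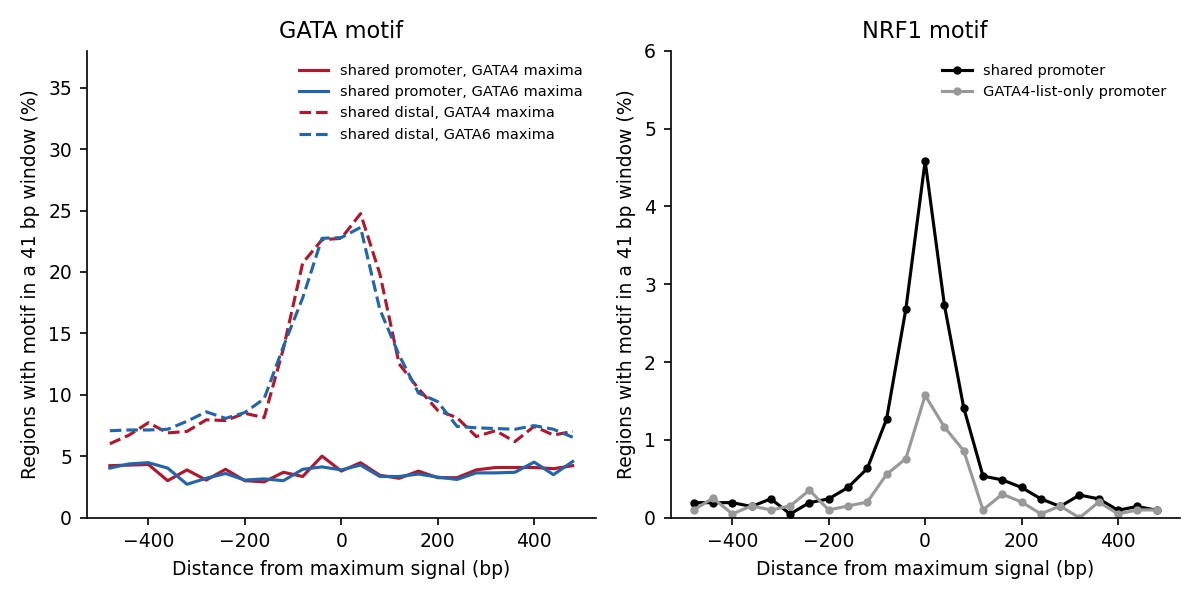
Share of regions with a motif (vertical axes, percent) in 41 bp windows by distance from the position of maximum signal (horizontal axes, bp). Left, the GATA motif around GATA4 maxima (red) and GATA6 maxima (blue) at shared promoter regions (solid) and shared distal regions (dashed). The solid lines ran between 2.73% and 5.02%, with the highest value at -40 bp from GATA4 maxima. Right, the NRF1 motif around the mean maximum at shared promoter regions (black) and GATA4-list-only promoter regions (grey), with 4.58% of shared promoter regions in the central window.

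In these libraries, members with a GATA motif ranked higher relative to the rest with GATA4 than with GATA6. A test of 3 against 3 libraries could not pass 0.05. The measure was the probability that a member with the motif had a higher total signal than a member without it (0.5 means no relation). In GATA4 replicates 1, 2 and 3 it was 0.568, 0.565 and 0.561, with a mean of 0.565 ± 0.0035 (SD, n = 3). In GATA6 replicates 1, 2 and 3 it was 0.507, 0.521 and 0.509, with a mean of 0.512 ± 0.0076 (SD, n = 3). All 3 GATA4 values were above all 3 GATA6 values, and the difference of 0.0523 had p = 0.1 by exact permutation over libraries (two-sided), which is as low as 3 against 3 can go. With the motif sought around the mean position of maximum signal the means were 0.595 ± 0.0055 and 0.510 ± 0.0192 (difference 0.0852, exact permutation p = 0.1). When total signal was divided by width the means were 0.503 ± 0.0120 for GATA4 and 0.457 ± 0.0142 for GATA6. With maximum signal they were 0.541 ± 0.0057 and 0.477 ± 0.0208. The order of the factors was kept with both measures, but all 3 GATA6 values were below 0.5 with each. The GATA4 mean came close to 0.5 after division by width. Ranks of the members were also less alike between GATA6 libraries (rho 0.373 to 0.419) than between GATA4 libraries (0.557 to 0.618). The part of this in the difference was not tested.

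The number of motifs showed the same order. Members with no motif within 100 bp of the maximum (1696) had median percentiles of 92.9, 92.1 and 92.8 in the GATA4 libraries. With 1 motif (263 members) the medians were 94.5, 94.3 and 93.9, and with 2 or more (92 members) 97.0, 96.1 and 96.6. All 3 GATA4 libraries rose at each step. Total signal adds up over the width of a region, and motif number was not examined with signal divided by width. In the GATA6 libraries the medians were 93.1, 92.1 and 92.8 with no motif, 92.3, 93.2 and 93.9 with 1, and 92.7, 91.9 and 91.9 with 2 or more. They did not move together from 0 motifs to 1, and all 3 were lower with 2 or more than with none, by less than 1 percentile. Serpinh1, a collagen chaperone gene whose sequence is printed above, had 3 motifs near the maximum and percentiles of 98.9, 99.4 and 99.9 for GATA4 and 98.8, 95.9 and 95.5 for GATA6.

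**Figure D3:**
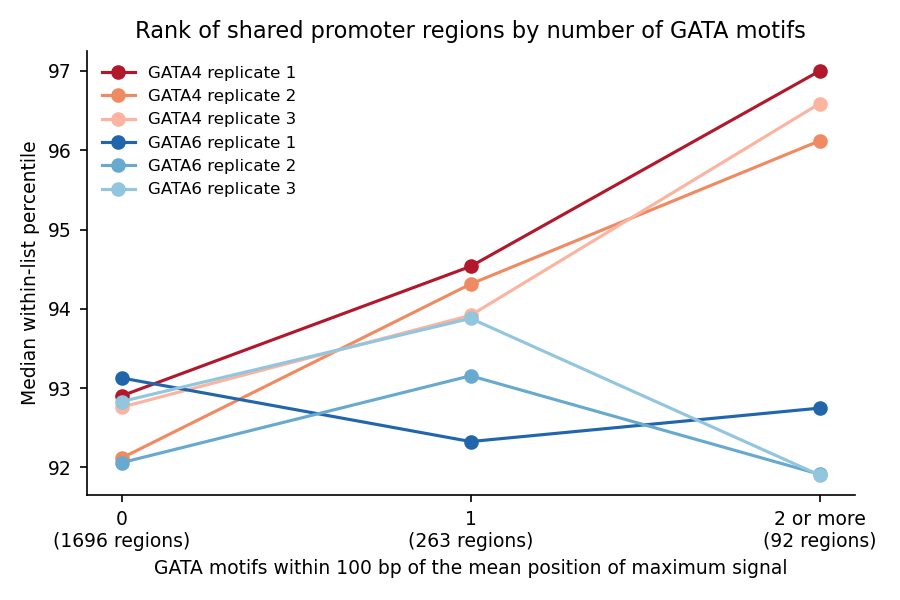
Median within-list percentile of total signal (vertical axis) of shared promoter regions with 0, 1 or 2 or more GATA motifs within 100 bp of the mean position of maximum signal (horizontal axis, with the number of regions). Each line is 1 library. The GATA4 lines (red shades) end between 96.1 and 97.0, and the GATA6 lines (blue shades) between 91.9 and 92.7.

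Single regions were compared between the factors by limma on normal scores of the within-list ranks, over the 3686 shared regions with a called region in all 6 libraries, of which 2023 were members. A score difference is in SD units of a normal distribution of ranks. A higher rank in GATA4 was called at 1 member (background 0.0271% of all shared regions tested) and a lower rank at none (background 0%; limma, Benjamini-Hochberg threshold 0.05). Without adjustment 185 members (9.14%) had p under 0.05, 94 higher and 91 lower, against 11.99% of all shared regions. The called member covered the TSS of Ttc32 (chromosome 12, 9027956 to 9030996, midpoint -521 bp), which encodes a tetratricopeptide repeat protein. Its percentiles were 99.94, 99.95 and 99.95 in the GATA4 libraries and 95.24, 95.04 and 90.77 in the GATA6 libraries, and its maximum signals 42, 41 and 26 against 10, 11 and 7. The groups did not overlap, and the score difference was 1.72 ± 0.19 (SE; limma, adjusted p = 0.00302). The call was lost when any 1 GATA4 library was left out and when total signal was divided by width. The region is 3041 bp wide and overlaps the GATA6 region over 761 bp.

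Complete separation of the libraries was counted as well. All 3 GATA4 percentiles were above all 3 GATA6 percentiles at 200 members (9.89%; background 13.5% of all shared regions tested), and below them at 148 members (7.32%; background 5.94%). The counts moved with the number of GATA motifs near the maximum. Of 1676 members with none, 8.29% were higher in every GATA4 library and 7.88% lower. Of 257 members with 1 motif the shares were 13.6% and 5.45%, and of 90 members with 2 or more they were 28.9% and 2.22%. The median score difference was 0.03, 0.18 and 0.50 in these groups, beside 0.17 over all shared regions tested. Cttn, the gene of the actin-binding protein cortactin, had the largest score difference in the other direction (-1.87 ± 0.53, SE; limma, adjusted p = 0.380), with percentiles of 42.3, 34.8 and 40.7 for GATA4 and 93.5, 95.4 and 94.6 for GATA6. At Cnot1, a scaffold of the CCR4-NOT deadenylase, they were 79.6, 85.8 and 91.6 against 99.8, 99.3 and 99.9 (limma, adjusted p = 0.0833), which did not pass the threshold.

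A panel of 14 motifs was then compared between the members and GATA4-list-only promoter regions, both strands, within 100 bp of the midpoint. The NRF1 motif GCATGCGC was the one that passed: 158 members held it (7.70%, exact interval 6.59 to 8.94), against 77 GATA4-list-only promoter regions (3.90%, interval 3.09 to 4.86). The difference was 3.80 points (95% interval 2.36 to 5.24; two-sided p = 2.61e-07 by Fisher's exact test, which passed 0.05 after Benjamini-Hochberg adjustment over the 14 motifs). All protein-coding TSSs held it in 2.41% of cases and shared distal regions in 1.12%. Around the mean position of maximum signal the shares were 12.6% of members, 5.43% of GATA4-list-only and 6.17% of the 746 GATA6-list-only promoter regions. The difference from GATA4-list-only regions was then 7.15 points (Fisher's exact p = 1.3e-15).

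The NRF1 difference was examined within strata, in an analysis added after the result was seen. It was 4.65 points among CpG-rich regions and 2.82 points among the rest (Fisher's exact p = 5.56e-05 and 0.000816). It was 6.04 points among regions with a mean GATA4 percentile of at least 90 and 1.96 points among those below (Fisher's exact p = 5.64e-05 and 0.0335). The difference kept its sign in each of these strata, and differences between the strata were not tested.

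Against windows 300 bp away, the NRF1 motif was centred on the maxima far more than the GATA motif. This held in GATA4-list-only promoter regions as well as in the members. Within 50 bp of the maximum of the library itself, 9.36%, 9.61% and 9.46% of members held it in the GATA4 libraries and 9.41%, 9.82% and 10.4% in the GATA6 libraries. Windows 300 bp to either side held it in 0.390% to 0.663%. Of all 14 motifs, NRF1 had the highest ratio of central to side windows at the members (16.5), followed by the CRE element (13.2, from 1.61% and 0.122%), ETS (3.49) and ZBTB33 (3.00). The CCAAT motif had a ratio of 2.97, the GC box 2.57 and the GATA motif 1.08. In GATA4-list-only promoter regions NRF1 also had the highest ratio (9.57, from 3.40% and 0.355%). CpG-rich sequence is itself densest near start sites, and its part in these ratios was not tested.

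**Figure D4:**
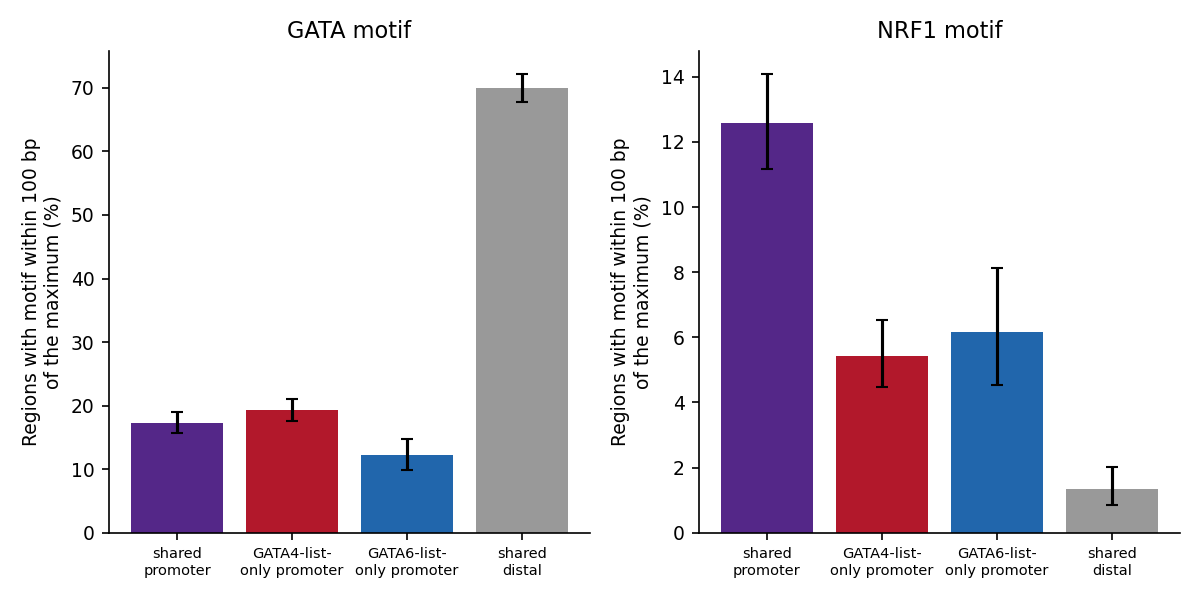
Share of regions (vertical axes, percent) with the GATA motif (left) or the NRF1 motif (right) within 100 bp of the mean position of maximum signal, in 4 classes of region. Bars are shares and whiskers exact 95% binomial intervals. Shared distal regions were highest for the GATA motif (70.1%) and shared promoter regions for the NRF1 motif (12.6%).

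Members with an NRF1 motif near the maximum numbered 258, and their medians were higher with both antibodies. Their median percentiles were 95.4, 94.6 and 94.4 in the GATA4 libraries, against 93.1, 92.3 and 92.8 for members without it. In the GATA6 libraries they were 94.997, 94.0 and 95.8, against 92.7, 91.9 and 92.3. The median was higher with the motif in 6 of 6 libraries. These percentiles are of total signal, which adds up over the width of a region, and other signal measures were not examined for NRF1. Only 17 of these members (6.59%) also had a GATA motif near the maximum, beside 18.9% of members without an NRF1 motif. CpG-rich sequence was present at 64.0% of them, and 1455 members (70.9%) had neither motif near the maximum. Of the printed examples, Snrnp70 had maximum signals of 19, 17 and 15 for GATA4 and 14, 15 and 18 for GATA6, and Ftx had 23, 16 and 28 and 28, 14 and 19.

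The other 13 motifs did not pass after adjustment. AP-1 was searched as TGANTCA, TEAD factors as GGAATG, FOXA as TGTTTAC and SOX factors as ACAATG. Of the promoter elements, NF-Y was searched as CCAAT, ETS factors as CCGGAAG, YY1 as ATGGCGG, the GC box as GGGCGG, the E-box as CACGTG, CRE as TGACGTCA, the TATA box as TATAAA and ZBTB33 as TCTCGCGA. None of the 14 contains another in full. ETS was present at 12.2% of members and 10.1% of GATA4-list-only promoter regions (Fisher's exact p = 0.0403, adjusted 0.252; 9.11% of all protein-coding TSSs). The GC box was present at 52.3% and 50.4% (40.1% of TSSs) and CCAAT at 35.4% and 36.6% (25.4% of TSSs). The GC box and CCAAT were the commonest of the 14 motifs in both classes, above the GATA motif. The TSSs are a rough background, since 43.3% of them were CpG-rich, beside 54.9% of the members. Their windows were also centred on the TSS itself, whereas those of the members were centred on region midpoints. Among CpG-rich sequence the GC box was present at 65.2% of members and 69.3% of TSSs, ETS at 16.7% and 16.0%, and CCAAT at 35.3% and 23.3%. Among the rest these shares were 36.6% and 17.8%, 6.70% and 3.87%, and 35.7% and 27.0%.

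Motifs of lineage factors had lower shares at the members than at shared distal regions. SOX was present at 5.41% of members and 21.5% of shared distal regions (6.31% of TSSs), TEAD at 9.65% and 17.0% (7.77% of TSSs), and AP-1 at 3.56% and 9.86% (4.01% of TSSs). FOXA was present at 1.76% of members and 3.66% of shared distal regions (1.69% of TSSs). The remaining shares at the members were 6.19% for the E-box (5.11% of TSSs), 4.05% for YY1 (5.67%), 3.17% for the TATA box (7.20%), 1.76% for CRE (1.79%) and 0.975% for ZBTB33 (1.003%). The TATA box was thus less frequent in windows around the midpoints of members than in windows around all protein-coding TSSs. The same held for GATA4-list-only promoter regions (3.40%). The part of the different window centres in this was not tested.

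At the level of genes, 2227 of 21938 protein-coding genes (10.2%) had a member within 1 kb of a TSS, and 333 of 13374 lncRNA genes (2.49%) had one. A member counts for every gene with a TSS in reach, and 63 protein-coding genes had 2 or more. Gene lists were described by counts beside the share over all protein-coding genes, because they were chosen with results of these data known and carry no test.

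The list of XEN and primitive endoderm genes had the highest share. Of its 26 genes, 12 (46.2%, beside 10.2% of all protein-coding genes) had a shared promoter region. They were the transcription factor genes Gata6, Sox17 and Sox7, the receptor gene Pdgfra, the endocytic adaptor gene Dab2, the basement membrane genes Lama1, Lamb1, Lamc1 and Nid2, the keratin gene Krt8, the plasminogen activator gene Plat and the chaperone gene Serpinh1. Their median mean percentile was 82.9, within the quartiles (79.5 and 94.8) of all protein-coding genes with a member, whose median was 88.7.

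The individual values show how uneven these regions were. At Gata6 (chromosome 18, 11052220 to 11052690, intron, midpoint -15 bp) the GATA4 percentiles were 94.4, 90.8 and 8.49, beside GATA6 percentiles of 75.2, 41.5 and 80.7, with maximum signals of 9, 9, 6, 5, 5 and 9. The factors overlapped, and GATA4 replicate 3 was far below the other two. At Sox17 (chromosome 1, 4493415 to 4493883, UTR, midpoint -45 bp) GATA4 percentiles of 75.5, 77.9 and 74.9 stood beside GATA6 percentiles of 92.3, 60.6 and 40.2. Sox7, its close relative and a member of the same SoxF group, had a wider region (chromosome 14, 63941914 to 63943734, midpoint -849 bp). It had GATA4 percentiles of 94.6, 99.8 and 98.2 and GATA6 percentiles of 97.1, 72.6 and 97.8.

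Among the 12 lineage genes with a member, Dab2 and Serpinh1 were those at which all GATA4 percentiles were above all GATA6 percentiles. Over all shared regions tested, 13.5% separated in this way. The gap was narrow at Serpinh1, with a lowest GATA4 percentile of 98.91 and a highest GATA6 percentile of 98.82. The Dab2 region (chromosome 15, 6386179 to 6387135, UTR, midpoint 59 bp) had percentiles of 97.6, 97.4 and 97.6 for GATA4 and 63.7, 70.6 and 61.5 for GATA6, with maximum signals of 18, 17 and 14 against 8, 6 and 6. Neither region passed the limma threshold. Pdgfra, the receptor that marks primitive endoderm, had a region upstream (chromosome 5, 75151287 to 75151833, midpoint -732 bp) with 3 GATA motifs near the maximum. Its percentiles were nevertheless modest and scattered, at 68.1, 90.2 and 45.0 for GATA4 and 47.1, 98.3 and 90.02 for GATA6, with no maximum signal above 7.

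The laminin genes encode the 3 chains of laminin-111 in the basement membrane. Lamc1 had the highest values (98.7, 99.2 and 99.3 for GATA4, 86.2, 86.9 and 99.2 for GATA6; chromosome 1, 153332709 to 153334460). Lamb1 had percentiles of 33.4, 89.996 and 89.0 for GATA4 and 95.1, 99.0 and 84.8 for GATA6, and Lama1 71.8, 92.4 and 85.8 against 78.4, 76.3 and 30.9. The factors overlapped at all 3 genes. Nidogen 2, which links laminin to collagen, had 95.7, 90.6 and 98.0 against 86.2, 94.8 and 58.6 at Nid2. Plat and Serpinh1 ranked high in all 6 libraries. Plat had 98.4, 99.3 and 95.9 for GATA4 and 94.6, 97.7 and 99.1 for GATA6.

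Of the 14 AP-1 and immediate early genes, 5 (35.7%) had a member: Jun, Junb, Jund, Maff and Klf9. Jun and its relatives encode subunits of the AP-1 factor. The Jun region (chromosome 4, 95051967 to 95052727, midpoint -125 bp) had percentiles of 97.3, 94.2 and 80.4 for GATA4 and 90.5, 93.4 and 97.9 for GATA6. Jund had 98.7, 77.5 and 96.0 against 99.7, 99.2 and 80.1, and Junb 69.8, 84.0 and 95.3 against 29.1, 90.7 and 79.7. The factors overlapped at these 3 genes and at Klf9. At Maff, which encodes a small MAF protein, they did not: the percentiles were 62.2, 1.46 and 83.0 with GATA4 and 91.7, 86.0 and 96.0 with GATA6, a score difference of -1.71 ± 0.77 (SE; limma, adjusted p = 0.409). Separation in this direction was found at 5.94% of all shared regions tested. Junb and Jund are on chromosome 8 and Klf9 is on chromosome 19, and members were dense on both. Chromosomes 8, 14 and 19 carry 28.6% of the listed genes, beside 2661 of all 21938 protein-coding genes. The part of these chromosomes in the share was not tested.

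Of the 26 pluripotency genes, 3 (11.5%) had a member, close to the share over all genes. They were Klf5 (percentiles of 88.5, 93.8 and 95.5 for GATA4 and 90.3, 98.6 and 97.2 for GATA6), Sall4 (93.5, 95.4 and 89.9 against 92.7, 97.2 and 97.0) and Mybl2 (50.9, 86.9 and 85.0 against 97.6, 97.3 and 45.8). Klf5 and Sall4 encode zinc finger factors, and Mybl2 a factor of the cell cycle. Among 15 GATA cofactors and chromatin proteins, 3 had one: Zfpm1, which encodes the GATA cofactor FOG1, Smarca4, the ATPase of the BAF remodeller, and Mta2 of the NuRD complex. None of 16 SOX, FOX and TEAD factor genes outside the endoderm list had one.

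Housekeeping gene groups were unevenly represented. Cyclins and CDKs had a member at 10 of 37 genes (27.0%), proteasome subunits at 10 of 39 (25.6%), CCT chaperonin subunits at 2 of 8, spliceosome and SR proteins at 7 of 34 (20.6%) and translation initiation factors at 10 of 55 (18.2%). Mitochondrial ribosomal proteins had one at 12 of 78 (15.4%), complex I subunits at 4 of 36 (11.1%) and cytosolic ribosomal proteins at 8 of 79 (10.1%). MCM helicase subunits had none of 6. Zinc finger protein genes were near the share over all genes (47 of 391, 12.02%). Olfactory receptor genes, which are silent outside sensory neurons, had 1 of 1092, and vomeronasal receptor genes none of 326.

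**Figure D5:**
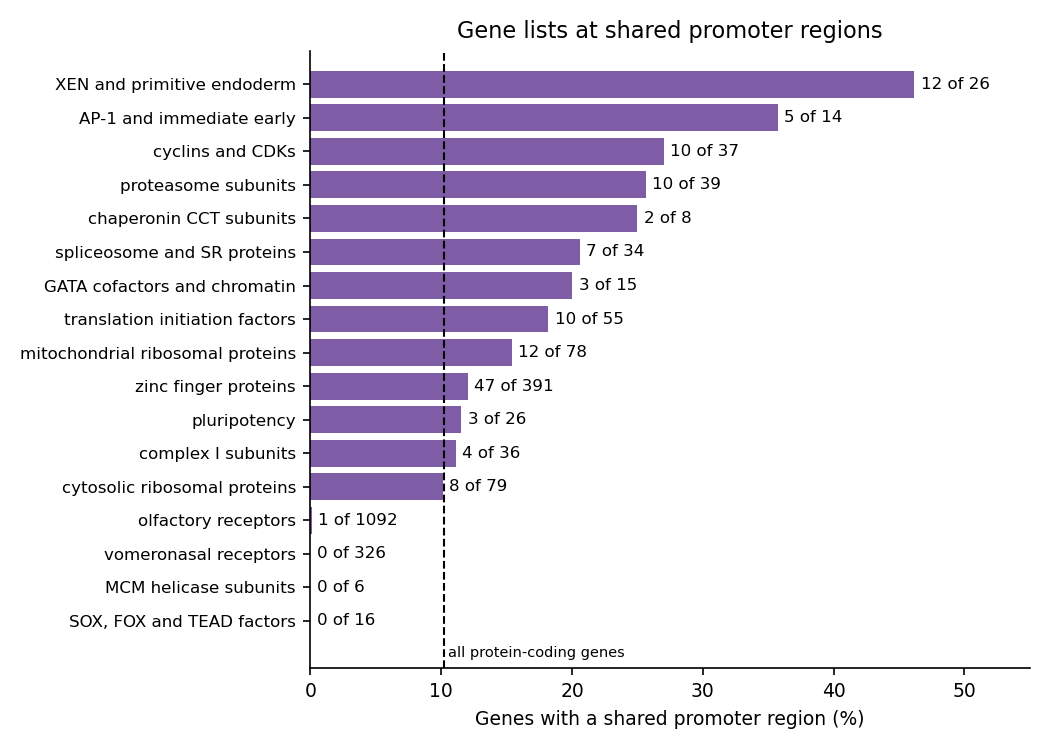
Share of genes with a shared promoter region (horizontal axis, percent) in each gene list, with counts beside the bars. The dashed line is the share over all protein-coding genes, 10.2%. The XEN and primitive endoderm list was highest with 12 of 26 genes.

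The members of highest mean percentile were mostly not at lineage genes. They were, in order, at Sfi1, Ttc9c, AC125101.1, Cdca2, 1700123O20Rik, Ppp2r3d, Ing1, Evi5l, Gm35696 and Eif5a. Sfi1, which encodes a centrosomal protein, had 4 members, the most of any gene, and its first region (chromosome 11, 3161995 to 3167018) had maximum signals of 92, 104 and 108 for GATA4 and 103, 102 and 109 for GATA6. The next, shared by Ttc9c and a divergent neighbour (chromosome 19, 8818024 to 8820469), had 23, 24 and 16 against 13, 13 and 16. Cdca2, a gene of mitotic chromosomes, had 23, 30 and 23 against 13, 13 and 13, and Ing1, a chromatin reader gene, 25, 19 and 28 against 15, 17 and 14. Eif5a, a translation factor gene, had 18, 20 and 14 against 12, 16 and 14. The Sfi1 values stood apart from all other named members with both antibodies.

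The members were unevenly spread over chromosomes. Chromosomes 8, 14 and 19 held 582 members (28.4%), and 22.4% of their protein-coding genes had one, against 8.46% on the other chromosomes. The share was 27.8% on chromosome 8, 19.2% on chromosome 14, 18.6% on chromosome 19 and 5.73% to 11.1% on the remaining autosomes. On chromosome X it was 1.16%, and none of 183 genes on chromosome Y had one. The median percentile was 93.8 to 95.8 on chromosomes 8, 14 and 19 and 91.0 to 93.0 elsewhere, while the GATA motif share was 20.1% and 17.4%. Without these chromosomes the NRF1 difference was 5.19 points. Of the named lineage genes, Sox7 and Nid2 are on chromosome 14 and Plat is on chromosome 8, and the part of the dense chromosomes in their presence was not tested.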

How the data were processed

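CUT&RUN for GATA4 and GATA6 was analysed in 6 XEN libraries, grouped by their titles. The labels give 500000 cells per sample. The labels give 3 libraries per factor and the line 3F2, whereas the study's methods name a further line and fewer replicates. The labels were followed. The permutation and limma p-values therefore rest on the spread between these libraries, which may be technical. Fisher's exact p-values have regions as units and do not measure that spread. Paired-end reads were aligned by the authors to mm10 with Bowtie2 2.3.4.1 and filtered for duplicates, low mapping quality, mitochondrial and blacklisted sequence. Regions were called per library with SEACR 1.3 (numeric threshold 0.01, no normalisation). An anti-IgG antibody was part of the experiment, but the stated calling options hold a numeric threshold and name no IgG control. The lists thus carry no stated comparison with an antibody background. The deposited lists give for each region the total signal and the maximum signal, both unscaled for depth. The authors' combined lists hold positions of regions present in all replicates. Such a threshold largely fixes the number of regions per library.

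Members and gene lists were chosen with earlier results of these data known, and the motif panel and NRF1 alternatives after seeing the files. TSSs came from GENCODE M21 (protein-coding and lncRNA, all transcripts), and sequence from the GRCm38 assembly. Percentiles were computed within each list. Motif shares were compared by Fisher's exact test, motif ranks by exact permutation over libraries and single regions by limma 3.58.1 (trend, R 4.3.3) on normal scores of ranks. Genes were named by rule: the 10 members of highest mean percentile, 1 per gene; members at the lineage, AP-1 and pluripotency lists; the members of largest rank difference; and, for sequences, list members and the 5 of highest percentile with a GATA motif within 50 bp of the maximum, outside UTRs. Of these 5, the Sfi1 and Gm35696 windows are not printed. The members added for the NRF1 motif and Dab2, Cttn and Cnot1 in single comparisons follow their values. Alternatives were other overlaps, windows, motif and CpG definitions, signal measures, a replicate block and leaving out each library. For shares and counts with fewer libraries, the lists were rebuilt by merging overlapping regions of the libraries, whereas the main values use the authors' combined lists. The code was tested on simulated data. Scripts ran in Python 3.11.15 with scipy 1.17.1 and pandas 2.3.3, and sequence was read with pysam 0.24.0.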

Additional observations from a re-analysis of the deposited data

How the results depend on the processing

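Of the alternative values, 79 kept the direction and the side of the threshold, or stayed close to the value reported, and 22 did not. The alternatives of the NRF1 difference, and those of the rank difference by CpG content or without Sfi1, were chosen after seeing the data. With at least 2 of 3 libraries per factor there were 4525 shared promoter regions at 4673 protein-coding genes, the GATA motif difference was -4.89 points (p = 5.62e-07 by Fisher's exact test), the CpG-rich difference 12.8 points and the divergent difference 3.71 points. Leaving out 1 library gave 2207 to 2463 regions, 2361 to 2656 genes, GATA motif differences of -2.40 to -1.18 points, CpG-rich differences of 1.26 to 3.44, divergent differences of 0.143 to 2.296 and NRF1 differences of 3.13 to 4.11. The GATA motif difference passed 0.05 without GATA4 replicate 1 (-2.40) or GATA4 replicate 3 (-2.31). It changed sign with the core GATAA alone (0.184) and among CpG-rich regions (0.186), and the CpG-rich difference with a GC minimum of 0.5 (2.65); the cause was not tested. The NRF1 difference kept its sign and its side of 0.05 in the 14 alternatives run for it, from 1.96 to 7.15 points. Rank calls between the factors numbered 0 with signal divided by width, 11 with centred log2 total signal (4 higher in GATA4), and 0 to 1 with 1 library left out (0 without GATA4 replicate 1, 2 or 3).

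Deviations of libraries with the same replicate number correlated at 0.00989, 0.0388 and 0.0289, each the highest among the libraries of the other factor but below 0.1, so the numbers were not taken to pair the libraries. With the replicate block there were 3 calls (1 higher in GATA4), and the motif rank difference was 0.0523 (exact p = 0.25 by flipping signs, as low as 3 pairs can go), with 0.0497 to 0.0566 when 1 library was left out (exact permutation p = 0.2). Filtered depth is unknown, which limits all values resting on few fragments.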
